A study of Mus musculus with 15 samples.

Results

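The epithelial-mesenchymal switch genes are 10 genes fixed by name, Zeb1, Zeb2, Snai1, Snai2, Twist1, Vim, Fn1, Cdh1, Cdh2 and Esrp1, and all 10 were found by symbol among the 55291 genes of the expression tables. RNA-seq was done on HY19636 cells, a primary murine PDAC line, thus of 1 origin, in 15 samples of 5 groups with 3 samples each. In culture (DMEM with 10% serum) the groups were control cells, cells given DON at 25 µM for 24 h and cells kept without Gln for 24 h. In vivo, HY19636 tumors in the pancreas of immune-competent female C57BL/6J mice, aged 8 to 10 weeks, received vehicle or DRP-104. DON is a Gln antagonist and DRP-104 is a prodrug of DON, given at 3 mg per kg in 2 cycles of 5 days on and 2 days off, with collection on day 21. The same line was used in every group, and a tumor library also holds RNA of host cells. The labels do not say whether samples of 1 condition came from separate cultures, so p-values measure the spread between these libraries.

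In the epithelial-mesenchymal transition, cells loosen the junctions of an epithelium and take on features of mesenchymal cells. Transcription factors of the Zeb, Snail and Twist families bind E-boxes and repress Cdh1, which encodes the junction protein E-cadherin. Cdh2 (N-cadherin), Vim (the intermediate filament vimentin) and Fn1 (the matrix protein fibronectin) mark mesenchymal cells, and Esrp1 drives epithelial splicing. MicroRNAs of the miR-200 family repress Zeb1 and Zeb2, and the Zeb factors repress the miR-200 genes.

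The mature miR-200 sequences fall into 2 seed classes and are shown because Zeb1 and Zeb2 hold more sites for them than nearly any other gene. They come from RefSeq (GRCm38.p6), with bases 2 to 8, the seed, in capitals.
mmu-miR-200b-3p: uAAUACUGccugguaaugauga
mmu-miR-200c-3p: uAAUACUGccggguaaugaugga
mmu-miR-429-3p: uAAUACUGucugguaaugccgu
mmu-miR-200a-3p: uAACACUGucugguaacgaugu
mmu-miR-141-3p: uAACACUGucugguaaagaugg
Mir200b, Mir200a and Mir429 lie together on chromosome 4 and Mir200c and Mir141 on chromosome 6. The longest annotated 3′ UTR of Zeb2 held 9 matches to the seeds (5 of CAGTATT and 4 of CAGTGTT), and that of Zeb1 also held 9. Among 21020 protein-coding genes in the GENCODE M21 transcripts, 3 held at least 9 such matches, and the third, D10Wsu102e, has an annotated 3′ UTR of 122583 bases. The 3′ UTR was 4941 bases long for Zeb2, 2401 for Zeb1 and 961 at the median gene, and 25.8% of the genes held at least 1 match. Snai2 and Fn1 held 2 each and Snai1 held 1, whereas Twist1, Vim, Cdh1, Cdh2 and Esrp1 held 0. A match is a run of letters and not a tested site. As examples, 2 stretches of the Zeb2 3′ UTR on the minus strand of GRCm38 are given with the match in capitals.
Zeb2, chr2:44987656-44987675: attttgtCAGTATTacacca
Zeb2, chr2:44987820-44987839: ccttgtaCAGTGTTcagagg
The rows of the microRNA genes themselves (Mir200a, Mir200b, Mir200c, Mir141 and Mir429) carried at most 5 reads in any library, but mature microRNAs were not measured by this assay. Longer host transcripts were not examined.

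In GRCm38, the build that the gene coordinates of the FPKM table match, Zeb2 (ENSMUSG00000026872) lies on chromosome 2 from 44983634 to 45117395 on the minus strand. Snai2 (ENSMUSG00000022676) lies on chromosome 16 from 14705852 to 14709395 and Cdh1 (ENSMUSG00000000303) on chromosome 8 from 106603351 to 106670246, both on the plus strand. Promoter sequences were at hand for 4 of the 10 genes (Zeb2, Snai1, Twist1 and Vim). The motif CAGGTG, the core E-box of Zeb and Snail factors, was searched on both strands (CAGGTG or CACCTG) in the 250 bases before each start. It was present once in Snai1 and absent from Twist1, Vim and the 4 Zeb2 entries, while 17.2% of 32851 promoters held it. The Snai1 promoter is printed because it carries the motif, in capitals, 126 bases before the start (GRCm38.p6, plus strand).
Snai1, chr2:167537945-167538194: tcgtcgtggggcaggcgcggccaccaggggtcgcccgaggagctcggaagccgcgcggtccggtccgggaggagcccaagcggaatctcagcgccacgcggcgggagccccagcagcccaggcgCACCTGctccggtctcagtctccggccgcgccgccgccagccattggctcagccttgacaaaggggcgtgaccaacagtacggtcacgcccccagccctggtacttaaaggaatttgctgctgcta
No CAGGTG in a window says only that these letters are not there.

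Values in the tables are normalized counts (1 size factor scales all genes of a library), and the culture libraries held 25.2 to 48.2 M reads and the tumor libraries 16.3 to 20.7 M. In both culture tables the control columns carry a vehicle label rather than the label of the control samples, so they were taken as control cells by group and not matched to single samples. Among genes with 1 to 20 reads, an even number of reads was found in 69.6% to 72.7% of genes in the cultures and 41.9% to 46.5% in the tumors, and the part of this difference in the tumor against culture values was not tested. Every group holds the same line, so the presence of its markers cannot check the labels. Of the markers of ductal carcinoma cells (keratins, Sox9 and Muc1), 6 of 6 had reads in every group. Their summed level was 12253 to 14693 RPM (reads scaled to library size) in control cells, 5992 to 7891 in vehicle tumors and 6111 to 9518 in DRP-104 tumors. It was 3898 to 4138 RPM in DON cells and 5178 to 5768 in Gln-free cells, so it also differed between cultures of the same line. In control cells, 4 of 10 fibroblast markers (Col1a1, Col3a1, Pdgfra and Fap) had reads, with a sum of 15.3 to 19.0 RPM. The others, Col1a2, Dcn, Lum, Pdgfrb, Pdpn and Postn, were at 0.

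To compare levels between genes, reads were divided by gene length and library size (RPKM). In control cells Vim led with 1770 ± 83.6 (SD, n = 3), followed by Cdh1 with 179 ± 3.81 and Fn1 with 52.5 ± 9.08. Zeb1 (6.20 ± 1.03), Cdh2 (4.89 ± 0.123), Snai2 (3.77 ± 0.182) and Twist1 (3.32 ± 0.108) came next, then Zeb2 (0.928 ± 0.273), Esrp1 (0.329 ± 0.0659) and Snai1 (0.194 ± 0.107). The ranges of neighbors in this order did not overlap, except for Esrp1 and Snai1. The untreated line thus had abundant transcripts of both vimentin and E-cadherin, with Zeb1 above the other transcription factors per kb.
After DON, Snai2 moved up to 37.5 ± 1.97, next below Cdh1 at 59.7 ± 4.87, and without Gln it stood at 28.7 ± 2.02, a range shared with Fn1 (26.0 ± 7.39). In vehicle tumors Fn1 (391 ± 44.7) stood above Cdh1 (163 ± 12.8), and Twist1 (16.7 ± 3.76) was the first of the transcription factors. Snai1 was 7.27 ± 2.06 there and overlapped its neighbors Zeb2 and Snai2.

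**Figure D1:**
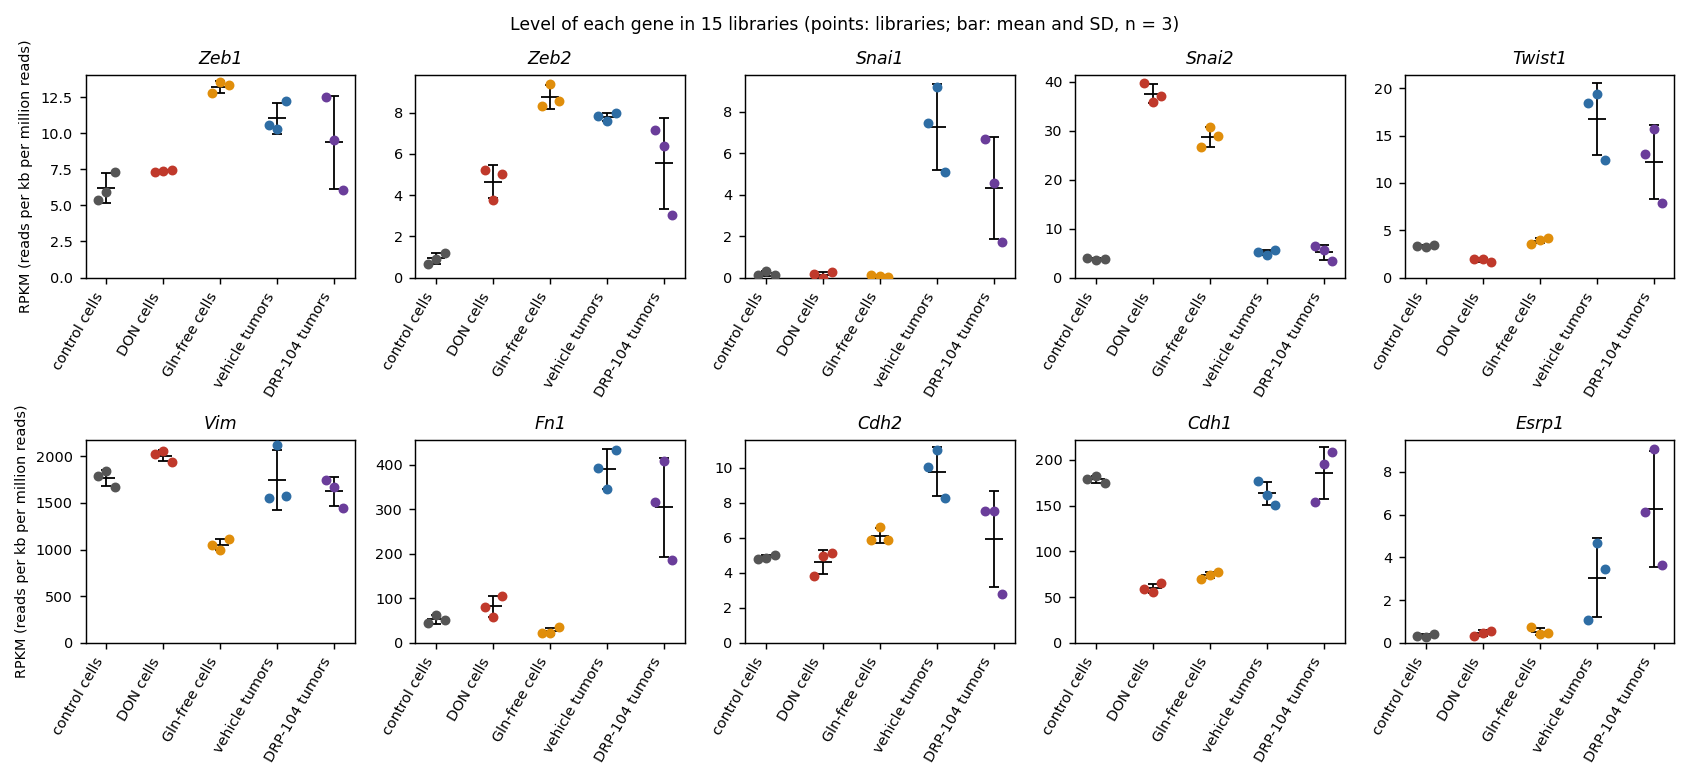
Level of each of the 10 genes in RPKM, reads per gene length and library size (vertical axes, each starting at 0) in the 15 libraries of the 5 groups (horizontal axes). Points are libraries and bars are the mean and SD, n = 3. Snai2 and Zeb2 are higher and Cdh1 lower in both treated cultures than in control cells, and Snai1, Twist1, Fn1 and Esrp1 are higher in vehicle tumors than in control cells.

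The first comparison asked what 24 h of DON does to these genes in culture. Snai2 and Zeb2 rose, Cdh1 and Twist1 fell, and Fn1 was called higher with little margin. Of the 10 genes, 9 passed the filter on low values (mean of at least 10) and 5 were called at an adjusted p under 0.05, 3 higher and 2 lower, where 68.1% of 13556 genes tested were called. The share of called genes was thus no larger than among all genes. The median log2 fold change was 0.13 over the 9 genes and 0.02 over all genes tested.

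Snai2 encodes Slug, a repressor of E-cadherin. It had 2423, 2181 and 2241 normalized counts in the 3 DON libraries and 275, 251 and 235 in the 3 control libraries. Every DON value thus lay far above every control value, with a log2 fold change of 3.16 (SE 0.112, adjusted p = 4.03e-11, limma). Zeb2 had 1426, 1025 and 1361 normalized counts after DON and 207.5, 279.7 and 346 in control cells, again without overlap, and a log2 fold change of 2.21 (SE 0.178, adjusted p = 8.85e-08, limma). Its close relative Zeb1 had 1283, 1292 and 1289 normalized counts after DON and 1060, 1164 and 1333 in control cells. The Zeb1 groups overlapped, and the log2 fold change was 0.13 (95% interval -0.10 to 0.35, adjusted p = 0.307). Without control library 3, the highest of the controls, it was 0.21 with an adjusted p of 0.0399.
Twist1, a basic helix-loop-helix factor, went the other way, with 95.5, 94.2 and 77.2 normalized counts after DON and 184, 176 and 173 in control cells. It fell by 0.99 on the log2 scale (SE 0.192, adjusted p = 0.000384), and the groups did not overlap. Snai1 (Snail) was close to absent, with 7.16, 0 and 11.8 normalized counts after DON and 7.55, 17.5 and 6.50 in control cells, so it was not tested.

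Cdh1 had 7859, 7346 and 8543 normalized counts after DON and 26967, 27511 and 24244 in control cells. The groups lay wide apart, and Cdh1 fell by 1.73 on the log2 scale (SE 0.0935, adjusted p = 1.54e-09). Of the 3 mesenchymal effectors, Fn1 alone was called. Vim, the most abundant of the 10 genes, stood at 133632, 135585 and 126789 normalized counts after DON and 134183, 137081 and 114984 in control cells, with a log2 fold change of 0.04 (95% interval -0.21 to 0.29, adjusted p = 0.775). This value depends on scaling: quantile normalization, which moved the median of all genes from 0.02 to 0.13, gave 0.42 with an adjusted p of 4.90e-05, and leaving out control library 3 gave -0.04.
Fn1 had 20279, 14599 and 26109 normalized counts after DON and 12359, 17459 and 13546 in control cells. The lowest DON value was within the control range, and the log2 fold change was 0.47 (SE 0.174, adjusted p = 0.0280). The call was lost with DESeq2 on the recovered reads (adjusted p = 0.107) and without DON library 1 (0.0756), DON library 3 (0.160), control library 1 (0.108) or control library 3 (0.0590). Without DON library 3 the log2 fold change was 0.27, the lowest of these.
Cdh2 had 556, 719 and 735 normalized counts after DON and 789.8, 802 and 761 in control cells. Its groups did not overlap, but the difference missed the threshold (log2 fold change -0.24, 95% interval -0.51 to 0.03, adjusted p = 0.110). Esrp1 was low in all 6 libraries (34.6 to 65.5 normalized counts after DON, 35.0 to 48.1 in control cells), with overlap and an adjusted p of 0.515.

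The second comparison asked what 24 h without Gln does, against the same 3 control libraries, scaled here in their own table. Zeb2, Snai2 and Zeb1 rose, and Cdh1, Fn1 and Vim fell. Thus 6 of the 9 genes tested were called, 3 in each direction, where 69.4% of 13390 genes were called, a share near that of all genes, and the same number was called under each of the alternatives. The median log2 fold change was 0.22 over the 9 genes and 0.01 over all genes tested.

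Zeb2 had 2234, 2513 and 2255 normalized counts without Gln and 195.6 to 333 in control cells. This was the largest change of the 9 genes in this comparison, with a log2 fold change of 3.17 (SE 0.161, adjusted p = 4.30e-09). Snai2 had 1590, 1824 and 1696 normalized counts without Gln and 227 to 259.6 in control cells (log2 fold change 2.82, SE 0.111, adjusted p = 6.36e-10). Zeb1 had 2178, 2311 and 2239 normalized counts and 999 to 1286 in control cells. All 3 Zeb1 values lay above the controls, with a log2 fold change of 1.00 (SE 0.104, adjusted p = 2.36e-06).
Twist1, at 169, 190.0 and 194 normalized counts without Gln and 166 to 173 in control cells, overlapped with them (log2 fold change 0.13, 95% interval -0.21 to 0.46, adjusted p = 0.488). Snai1 was again too low to test, with 2.00 to 5.22 normalized counts without Gln.

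Cdh1 had 9162, 9670 and 9957 normalized counts without Gln and 23382 to 25986 in control cells. It fell by 1.38 on the log2 scale (SE 0.0814, adjusted p = 1.54e-08) with no overlap. Vimentin and fibronectin transcripts also fell. Vim had 67358, 64318 and 70895 normalized counts without Gln and 110894 to 129483 in control cells, and fell by 0.85 on the log2 scale (SE 0.0990, adjusted p = 6.31e-06). Under quantile normalization the log2 fold change was -0.15 (adjusted p = 0.0484), so the size of the Vim change depends on the scaling. Fn1 had 5240, 5395 and 8319 normalized counts without Gln and 11648 to 16491 in control cells, and fell by 1.14 on the log2 scale (SE 0.165, adjusted p = 4.44e-05).
Cdh2 was 839.7, 937 and 825 normalized counts without Gln and 734 to 757 in control cells. The Cdh2 groups did not overlap, and the log2 fold change of 0.22 missed the threshold (95% interval -0.0035 to 0.44, adjusted p = 0.0737). Esrp1 (45.4 to 83.6 normalized counts without Gln, 33.0 to 46.4 in control cells) had an adjusted p of 0.137.

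The third comparison asked what DRP-104 does in tumors. None of the 10 genes was called, and neither was any of the 15454 genes tested (0%). At an unadjusted p under 0.05 the count was 0 of the 10 and 775 of all genes. With edgeR on the recovered reads 0 genes passed, and with DESeq2 60 of 13853 did, none of the 10 among them. In simulated tumor data of this depth and spread, limma recovered 17% of genes changed by 2-fold and 56% of genes changed by 4-fold, so changes of this size can be missed here.

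The transcription factors had log2 fold changes of -0.28 for Zeb1 (95% interval -0.91 to 0.36), -0.57 for Zeb2 (-1.31 to 0.16) and -0.89 for Snai1 (-2.06 to 0.28). For Snai2 the value was -0.04 (-0.74 to 0.67) and for Twist1 -0.47 (-1.17 to 0.23). The Snai2 interval did not reach the log2 fold change of 3.16 that DON gave in culture. With DRP-104 Snai2 had 256, 218 and 123 normalized counts, and with vehicle 191, 181 and 214, so the DRP-104 values lay on both sides of the vehicle values. Zeb2 had 1293, 1096 and 503 normalized counts with DRP-104 and 1284, 1328 and 1376 with vehicle, so 2 of the 3 DRP-104 tumors lay below all vehicle tumors and the other was within their range.

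With DRP-104 the tumors had 13503, 16287 and 16726 normalized counts of Cdh1, and with vehicle 14071, 13783.4 and 12674. The groups overlapped, and the log2 fold change was 0.19 (95% interval -0.18 to 0.56, adjusted p = 0.924). Cdh2 had 719.7, 689.8 and 244 normalized counts with DRP-104 and 876, 1024 and 757 with vehicle. Each DRP-104 value of Cdh2 lay below each vehicle value, with a log2 fold change of -0.83 (95% interval -1.73 to 0.07, adjusted p = 0.916). Esrp1 had 469, 659.8 and 255 normalized counts with DRP-104 and 73.3, 345 and 252 with vehicle. The Esrp1 log2 fold change was 1.20, with a wide interval (-0.13 to 2.53), and it ranged from 0.54 without vehicle tumor 1 to 1.65 without vehicle tumor 2. Vim (-0.08, interval -0.68 to 0.52) and Fn1 (-0.41, interval -1.16 to 0.34) overlapped between the groups.

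DRP-104 tumor 3 stood apart. Its value was the lowest of the 6 tumors for 8 of the 10 genes, the exceptions being Cdh1, for which it was the highest, and Esrp1. For example, Fn1 was 28266 normalized counts there and 52144 to 68357 in the other 5 tumors, and Snai1 was 51.0 there and 139.6 to 287 in the others. In this tumor the summed T cell markers were 63.9 RPM, where the other 5 tumors had 1.90 to 3.92, and the ductal carcinoma markers were 9518 RPM, against 5992 to 7891 in the others. Without it, no gene was called, and the log2 fold changes were 0.04 for Zeb1, -0.16 for Zeb2, -0.31 for Snai1, 0.28 for Snai2 and -0.16 for Twist1. For the other genes they were 0.03 for Vim, -0.07 for Fn1, 0.14 for Cdh1, -0.32 for Cdh2 and 1.58 for Esrp1. Acinar markers were 9.61 to 49.9 RPM in DRP-104 tumors and 8.59 to 133 in vehicle tumors. Summed fibroblast markers (10 of 10 with reads) were 1109 to 1799.7 RPM in DRP-104 tumors and 2224 to 4493 in vehicle tumors, without overlap. Endothelial markers (6 of 6 with reads) did not overlap either, at 72.9 to 109.9 RPM with DRP-104 and 112 to 136 with vehicle. Those of pericytes and smooth muscle (77.2 to 119 and 90.5 to 129) and of macrophages and leukocytes (181 to 406 and 229 to 367) overlapped, and the part of any of these markers in the values above was not tested. Because these are bulk samples, fewer cells of a type and less RNA per cell cannot be told apart. As single genes, 0 of the 10 fibroblast markers and 0 of the 6 endothelial markers were called with DRP-104. How often sums over other genes separate in this way was not tested. By tissue staining for podoplanin, aSMA and PDGFR, the paper reports no significant change of cancer-associated fibroblasts with DRP-104.
The authors' FPKM table of the tumors, whose columns were matched to groups but not to single tumors, gave log2 fold changes of the other sign for Cdh1 (-0.26), Snai1 (0.22), Snai2 (0.11), Twist1 (0.32) and Fn1 (0.09), and 0.46 for Esrp1. None of these was called either. The Cdh2 log2 fold change was -0.05 there, and its groups overlapped (5.67 to 9.17 FPKM with DRP-104, 7.21 to 8.02 with vehicle). Fn1 spanned 339 to 400 FPKM with DRP-104, where its RPKM in the DRP-104 tumors spanned 187 to 410. In DRP-104 tumor 3 Fn1 (187 RPKM) was below Cdh1 (208 RPKM). In every DRP-104 FPKM column Fn1 was above Cdh1, which spanned 122 to 161 FPKM. The order of 2 genes in a library does not depend on its scaling, so no FPKM column holds the values of tumor 3 merely rescaled. Whether the columns differ from the normalized counts in the tumors or in the counting was not tested.

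**Figure D2:**
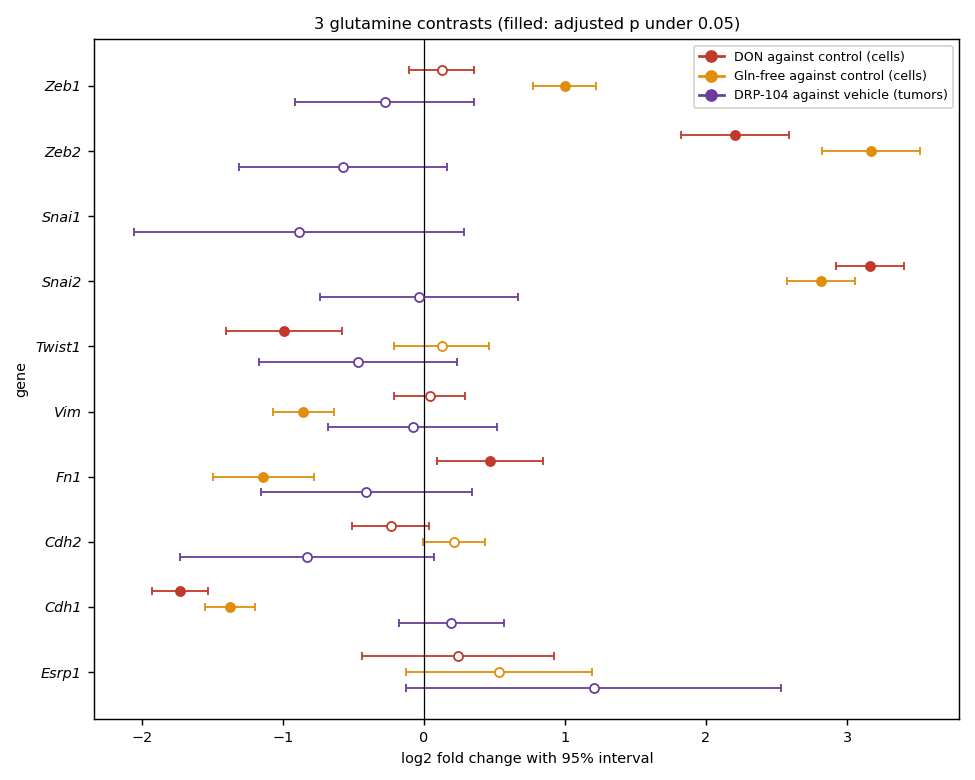
Log2 fold change (horizontal axis) with its 95% interval for each gene (vertical axis) in the 3 contrasts, with filled points for an adjusted p under 0.05. In cells Zeb2 and Snai2 lie far to the right and Cdh1 to the left in both contrasts, and all 10 tumor intervals include 0. Snai1 was tested in the tumors only.

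Side by side, the 3 contrasts gave Zeb2 log2 fold changes of 2.21 after DON, 3.17 without Gln and -0.57 with DRP-104. For Snai2 the values were 3.16, 2.82 and -0.04, and for Cdh1 -1.73, -1.38 and 0.19. The culture contrasts share their control libraries. The difference between the DRP-104 effect in tumors and the DON effect in cells was tested itself, in 12 libraries, and 3 of the 10 genes were called, where 33.1% of 15070 genes were, again a like share. The difference was -2.78 for Zeb2 (SE 0.407, adjusted p = 0.000202), -3.20 for Snai2 (SE 0.317, adjusted p = 1.02e-05) and 1.92 for Cdh1 (SE 0.170, adjusted p = 4.66e-06). These differences set 24 h of DON in culture against a course of DRP-104 in mice, so agent, dose, time and host cells cannot be told apart. For Zeb1, Twist1, Vim, Fn1, Cdh2 and Esrp1 the adjusted p was between 0.102 (Fn1) and 0.765 (Vim). Snai1, too low to test in the cells, passed the filter of this contrast only through the tumors, so no p-value is given for it. The count was 5 under quantile normalization, with Fn1 and Vim added, 4 with DESeq2, and 4 without DRP-104 tumor 2 or without DRP-104 tumor 3.

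DON and the lack of Gln were then compared with each other on reads of the 9 culture libraries scaled together. Of the 9 genes tested, 8 differed, 3 higher and 5 lower after DON, where 63.3% of 13514 genes were called. Fn1 and Vim were higher after DON than without Gln, by log2 fold changes of 1.64 (SE 0.194, adjusted p = 2.62e-06) and 0.93 (SE 0.0909, adjusted p = 3.58e-07). Slug transcripts were slightly higher after DON too (Snai2, log2 fold change 0.38, SE 0.0955, adjusted p = 0.00258). Twist1, Zeb2 and Zeb1 were lower after DON than without Gln, with log2 fold changes of -1.09, -0.93 and -0.84 (adjusted p = 3.80e-05, 0.000124 and 1.21e-06). Both cadherins were also lower after DON, Cdh1 by a log2 fold change of -0.32 (SE 0.0784, adjusted p = 0.00218) and Cdh2 by -0.42 (SE 0.115, adjusted p = 0.00474). Esrp1 had a difference of -0.26 (95% interval -0.93 to 0.41). The same 8 genes were called under every alternative that was run.

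Tumor and culture levels were compared between vehicle tumors and control cells, on reads of these 6 libraries scaled together. Of the 10 genes, 8 were called, 7 higher and 1 lower in tumors, where 59.7% of 15009 genes were called. Snai1 passed the filter through the tumors alone, since its mean in control cells was under 10. Of the 9 genes with a mean of at least 10 in both groups, 7 were called, 6 higher and 1 lower, where 55.4% of 12849 such genes were called. The median log2 fold change was 0.75 over these 9 genes and -0.06 over all such genes. Tumor RNA includes host cells that can express these genes: the summed fibroblast markers were 2224 to 4493 RPM in vehicle tumors and 15.3 to 19.0 in control cells. Markers of macrophages and leukocytes summed to 229 to 367 and 2.04 to 2.90 RPM, those of endothelium to 112 to 136 and 1.84 to 3.92, and those of pericytes and smooth muscle to 90.5 to 129 and 0.125 to 0.369. The part of these cells in the values below was not tested.

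Snai1 had 275, 361 and 197 scaled counts in the vehicle tumors and 6.32, 14.6 and 5.44 in control cells. These levels are given with no test, because it passed the filter only where it was high. Zeb2 had 1619, 1675 and 1724 scaled counts in tumors and 174, 233 and 289.6 in control cells (log2 fold change 2.87, SE 0.186, adjusted p = 9.96e-07). Twist1 rose from 154, 147 and 145 scaled counts to 676, 757 and 476 (log2 fold change 2.07, SE 0.205, adjusted p = 1.65e-05). For these 3 factors every vehicle tumor lay above every control culture. Zeb1 was higher by a log2 fold change of 0.61 (SE 0.138, adjusted p = 0.00340). Snai2, which had risen in both treated cultures, did not pass (log2 fold change 0.21, 95% interval -0.21 to 0.63), and its sign turned under quantile normalization (-0.18).

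Fn1 had 74323, 69401 and 85636 scaled counts in the vehicle tumors and 10357, 14545 and 11352 in control cells (log2 fold change 2.67, SE 0.164, adjusted p = 7.09e-07). Cdh2 was higher in tumors by a log2 fold change of 0.75 (SE 0.145, adjusted p = 0.00128). Esrp1 also rose, from 35.8, 29.1 and 40.3 scaled counts to 92.4, 435 and 316, a log2 fold change of 2.71 (SE 0.490, adjusted p = 0.000855), or 1.75 under quantile normalization. Thus Esrp1, a factor of epithelial splicing, and several mesenchymal genes were both higher in the tumors. The related splicing factor gene Esrp2 had more scaled counts than Esrp1 and went the other way, with means of 812 in tumors and 1626 in control cells. Cdh1 had 17740.0, 17379.8 and 15878 scaled counts in tumors and 22598, 22919 and 20318 in control cells, and fell by 0.37 on the log2 scale (SE 0.124, adjusted p = 0.0259). This call was lost under quantile normalization (log2 fold change -0.05, adjusted p = 0.693) and without vehicle tumor 3 (adjusted p = 0.0845), control library 1 (0.0973) or control library 2 (0.0993). Vim did not pass (log2 fold change -0.27, 95% interval -0.71 to 0.17), and its sign turned under quantile normalization (0.34).

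**Figure D3:**
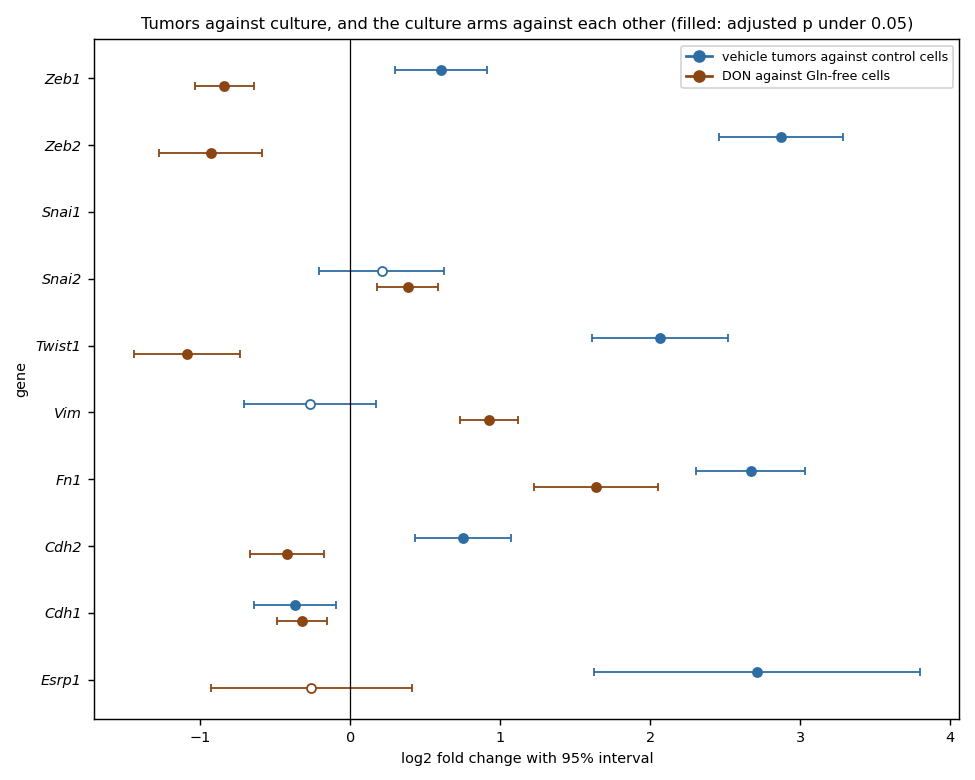
Log2 fold change (horizontal axis) with its 95% interval for each gene (vertical axis), for vehicle tumors against control cells and for DON against Gln-free cells, with filled points for an adjusted p under 0.05. Zeb2 at 2.87, Esrp1 at 2.71 and Fn1 at 2.67 lie furthest to the right among the tumor values, and Fn1 at 1.64 among the culture values. Snai1, under the filter in cells, is not drawn.

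Ratios within a library need no scaling between libraries. The reads of Cdh1 per read of Cdh2 were 31.8 to 34.3 in control cells, 10.2 to 14.1 after DON and 10.3 to 12.1 without Gln. Both treated ranges lay below that of the controls. In vehicle tumors the ratio was 13.5 to 16.8, and in DRP-104 tumors it was 18.8 to 68.5, with the highest value in tumor 3. The reads of Zeb2 per read of Zeb1 were 0.196 to 0.259 in control cells, 0.793 to 1.11 after DON, 1.01 to 1.09 without Gln, 1.02 to 1.16 in vehicle tumors and 0.789 to 1.05 in DRP-104 tumors, of which 2 lay below every vehicle tumor. These ratios are given as a description, with no test.

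**Figure D4:**
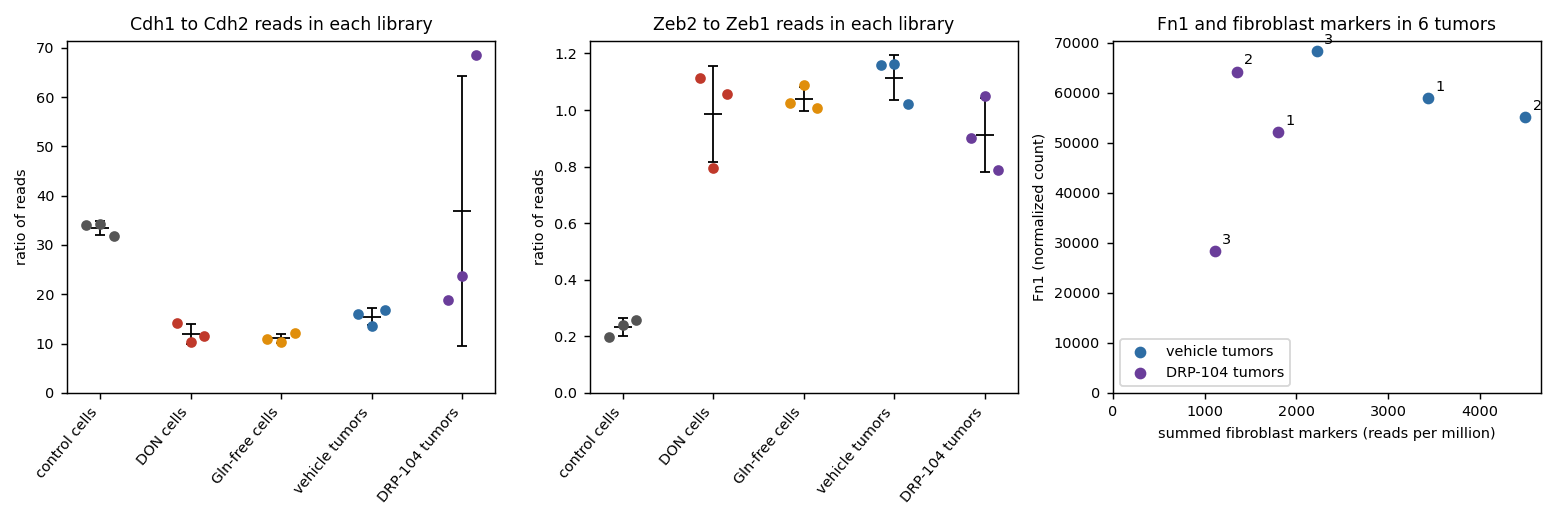
Left and middle, reads of Cdh1 per read of Cdh2 and of Zeb2 per read of Zeb1 in each library of the 5 groups (vertical axes start at 0, bars are the mean and SD, n = 3). Right, Fn1 in normalized counts against the summed fibroblast markers in RPM in the 6 tumors, numbered by replicate, where DRP-104 tumor 3 is the lowest on both axes.

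Counts over related genes are given for those with a mean of at least 10 in both groups. Of all such genes, 67.7% of 12565 were called after DON (4201 higher, 4305 lower), 69.4% of 12537 without Gln (4391 higher, 4306 lower) and 64.1% of 12616 between the treated cultures. The partners of E-cadherin were mostly lower in both treated cultures. Of 12 adherens junction and desmosome genes, all tested, 11 (91.7%) were called after DON, each of them lower (median log2 fold change -1.34, 0.03 over all such genes), and 11 without Gln, 10 lower and 1 higher (median -0.85, 0.01 over all such genes). The desmosomal plaque gene Pkp2 had a log2 fold change of -3.02 after DON, and the desmocollin gene Dsc2 one of -2.13. Without Gln these were -2.13 for the plakoglobin gene Jup and -2.08 for the nectin gene Nectin2, while Afdn (afadin) rose by 0.20. With DRP-104, 0 of 12 were called (median 0.19), and for 9 of 12 the DRP-104 effect in tumors was higher than the DON effect in cells, where 33.1% of all genes were called in that contrast.
Of 12 epithelial surface, polarity and protease genes, 7 passed in both groups in each culture contrast, and all 7 were called in each, with 7 lower after DON, and 6 lower and 1 higher without Gln. The surface adhesion molecule Epcam fell by 2.79 after DON and fell by 2.63 without Gln on the log2 scale. Pard6b, a polarity gene, rose by 0.30 without Gln. The small GTPase gene Rab25 was under the filter in control cells, with a mean of 2.14 normalized counts there and 55.5 after DON, and is given with no test.

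Epithelial transcription and splicing regulators (11 genes, 6 tested in each culture contrast) were called at the rate of all genes, 4 of 6 (66.7%) in each contrast with control cells. After DON 3 fell and 1 rose, with log2 fold changes of -3.72 for the ETS factor Elf3 and -1.32 for the splicing factor Esrp2, the paralog of Esrp1. Without Gln 1 fell and 3 rose, with Elf3 lower by a log2 fold change of -2.21, Grhl1 higher by 1.57 and Klf5 higher by 1.44. Directly compared, all 6 were lower after DON than without Gln. In vehicle tumors Ehf, also an ETS factor, was higher by a log2 fold change of 5.22 than in control cells, and Esrp2 was lower by a log2 fold change of -1.01.

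Of 11 other transcription factors of the transition, 9 passed in both groups in each contrast with control cells. After DON 4 fell and 1 rose (55.6% called), and without Gln 2 fell and 5 rose (77.8%), shares not far from those of all genes. Sox4, an HMG-box factor, rose by 0.76 on the log2 scale after DON. Prrx1, a homeobox factor of mesenchyme, rose by 2.57 without Gln, from 93.0 to 557 normalized counts, and by 3.43 in vehicle tumors over control cells. Between the treated cultures Prrx1 was lower after DON by a log2 fold change of -3.74 (adjusted p = 4.66e-10).

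The mesenchymal effectors other than Vim, Fn1 and Cdh2 were mostly lower in the treated cultures. Of 17 genes, 11 passed in both groups after DON, and all 11 fell (median -1.38). The collagen cross-linking enzyme Loxl2 had a log2 fold change of -3.94 and the matricellular factor Ccn2 of -3.20. Without Gln 10 passed in both groups, of which 7 fell and 2 rose (90% called, median -0.60). Those that rose were the ectonucleotidase Nt5e, by 0.56, and the matricellular factor Ccn1, by 0.43. The calcium-binding S100a4 had a mean of 65.7 normalized counts in control cells and 3.43, under the filter, without Gln. In vehicle tumors 10 of the 11 genes that passed in both groups were higher than in control cells and 0 lower (median 1.33), where 55.4% of all such genes were called. The other 6 were under the filter in control cells and are not counted, among them Sparc, a matrix glycoprotein, with 18707 scaled counts in tumors and 5.99 in control cells.
The fibronectin receptors were 9 genes, integrins and the syndecan gene Sdc4, of which 7 were tested in culture. Of these, 6 fell after DON, and 4 fell and 2 rose without Gln, thus 85.7% called in each. Itgb3 had log2 fold changes of -4.62 and -3.55. Itgav rose by 0.43 without Gln and had a log2 fold change of -1.54 after DON against Gln-free cells.
In the TGF-beta pathway, an inducer of the transition, 12 of 14 genes passed in both groups after DON, of which 8 fell and 2 rose (83.3% called), and 13 without Gln, of which 6 fell and 4 rose (76.9%). The ligand Tgfb3 had log2 fold changes of -2.46 and -1.89. The inhibitors Skil and Smad7 rose without Gln by 1.23 and 1.17, and Skil rose by 0.44 after DON. In vehicle tumors 9 of 14 (64.3%, against 55.4% of all such genes) were higher and 0 lower, with the ligand Tgfb2 at 297 scaled counts, against 13.4 in control cells. With DRP-104, 0 genes of any of these lists were called.

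Over the 9 culture libraries, the genes whose log2 values ran closest to Cdh1 among 10431 genes with a mean of at least 100 were Paqr7 (Pearson r = 0.998), Grb7 (0.998) and Sdc1 (0.997). Those closest to Zeb1 were Aebp2 (0.997), Qk (0.996) and Cxadr (0.996). The 9 points fall into 3 groups that share controls and scaling, so these values are a description.
Reads of overlapping genes could not be separated, since the use of strand in the counting is not given in the sources used here. The antisense gene Zeb2os had at most 8.01 normalized counts in a culture library and 17.3 in a tumor, where Zeb2 had at least 195.6 and 503.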

How the data were processed

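RNA of 15 samples was measured by bulk RNA-seq. Novogene made the libraries for the authors, aligned reads with HISAT2 and ran DESeq2. The submitters' processing notes also name STAR 2.5, CASAVA and the build GRCm39, whereas gene coordinates in the FPKM table match GRCm38 (89.8% of 34490 genes lie within 1000 bases of GENCODE M21). The counting tool is not given in the sources used here. The deposited signal is the normalized count of a gene (the count over the size factor of its library), and each comparison has its own table. The authors' FPKM table covers the tumors and gives gene length. The authors' fold changes and p-values in these tables were not used, and a second tumor table with the same values was not used either.

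Whole reads were recovered from the values by dividing by the worth of 1 read (tolerance 0.0051), and at least 99.87% of values in any library came out whole. Limma 3.58.1 (R 4.3.3, eBayes with trend) was run on log2(value + 1) over genes with a mean of at least 10, so fold changes understate those of low genes. A gene can pass this filter through the group where it is high, so list counts were also taken over genes with a mean of at least 10 in both groups. P-values were adjusted by Benjamini-Hochberg over all genes tested, at a threshold of 0.05. Levels between tables used recovered reads scaled together by median of ratios. The interaction contrast used each treatment against its own control within its table. Alternatives were pseudocounts 0.5 and 5, other filters, quantile normalization, edgeR 4.0.16 and DESeq2 1.42.0 on recovered reads, edgeR on reads divided by 2 in cultures, a threshold of 0.01, the FPKM table, a replicate block and leaving out each library. On data simulated with the depth and spread of the DON comparison, limma recovered 77% of genes changed by 2-fold and 95% of those changed by 4-fold. Only 100 genes of each size were changed among 13589 there. In the DON comparison itself 68.1% of genes were called, so the simulation differs from it in the share of changed genes. The 10 genes, the gene lists and the tests were chosen with earlier results of these data known. From each list, at most the 2 largest rises and 2 largest falls among genes called were named. Figures were drawn with matplotlib 3.10.9. Read counts without molecular identifiers are not independent molecules.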

Additional observations from a re-analysis of the deposited data

Results flagged for a closer look

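For 3 of the 10 genes the effect of DRP-104 in tumors differed from that of DON in cells by the test of the difference itself (interaction contrast, limma, adjusted p under 0.05). The difference, DRP-104 effect minus DON effect on the log2 scale, was -2.78 for Zeb2, with a log2 fold change of -0.57 in tumors and 2.21 in cells. For Snai2 the difference was -3.20, with -0.04 in tumors and 3.16 in cells. For Cdh1 it was 1.92, with 0.19 in tumors and -1.73 in cells. These 3 differences were called in each of the 21 alternatives run, over which they ranged from -3.05 to -2.37 for Zeb2, from -3.42 to -2.89 for Snai2 and from 1.74 to 2.02 for Cdh1. Agent, dose, time and the presence of host cells cannot be told apart in this contrast.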

How the results depend on the processing

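Across the alternatives, the number of the 10 genes called stayed within 1.5 times the reported count in 101 of 102 refits, the exception being the interaction contrast under quantile normalization, with 5 in place of 3. Leaving out 1 library at a time gave 4 to 5 genes called after DON, 6 to 6 without Gln, 0 to 0 with DRP-104, 8 to 8 for DON against Gln-free cells, 7 to 8 for vehicle tumors against control cells (Snai1 included) and 3 to 4 for the interaction. Of 968 refitted log2 fold changes, 925 kept direction and side of the threshold and 24 changed sign, all of them for values that were not called. With the FPKM table the DRP-104 values became 0.22 for Snai1, 0.11 for Snai2, 0.32 for Twist1, 0.094 for Fn1 and -0.26 for Cdh1. No DRP-104 column there has Fn1 below Cdh1, the order in DRP-104 tumor 3. Whether its columns hold the same tumors was not tested, so these changes of sign are not ascribed to processing. Snai2 became 0.030 with edgeR and 0.031 with DESeq2. Under quantile normalization, vehicle tumors against control cells gave -0.18 for Snai2 and 0.34 for Vim, and the interaction gave -0.49 for Snai1. The Snai1 interaction was also -0.30 with a pseudocount of 5, -0.075 with edgeR and -0.047 with DESeq2. Snai1 passed the filter of the interaction only through the tumors, so its values there are not read as an effect. Values that changed sign when 1 library was left out ranged from -0.040 to 0.087 for Vim after DON, -0.55 to 0.036 for Zeb1, -0.25 to 0.28 for Snai2 and -0.19 to 0.086 for Vim with DRP-104, -0.46 to 0.0059 for Esrp1 between DON and Gln-free cells, and -0.83 to 1.00 for Snai1 and -0.23 to 0.046 for Vim in the interaction. Apart from scaling, which the construction of quantile normalization changes, the causes were not tested. Quantile normalization moved the median of all genes from 0.09 to -0.14 in tumors against control cells and from -0.02 to -0.13 in the interaction.

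Same-numbered libraries did not deviate together: correlations of their deviations were -0.03 to 0.03 in the cultures and -0.36 to 0.04 in the tumors, so the numbers are not taken to pair samples. With a replicate block the counts of genes called were 5 after DON, 6 without Gln, 0 with DRP-104, 8 for DON against Gln-free cells, 7 for tumors against control cells (Cdh1 with an adjusted p of 0.0637) and 3 for the interaction. In data simulated with 3 libraries per group and 100 genes changed by 2-fold, limma recovered 17% of these for DRP-104 against vehicle and 77% for DON against control.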
